A study of Homo sapiens with 6 samples.

Results

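The YAP/TAZ/TEAD axis was followed in brain-metastatic lung adenocarcinoma cells after knockdown of AKR1B10. The 10 genes were chosen by symbol from the deposited gene table: the coactivators YAP1 and WWTR1 (the gene of TAZ), the DNA-binding partners TEAD1 and TEAD4, the upstream regulators LATS2, AMOTL2 and AJUBA, and the secreted or nuclear target products CYR61, CTGF and ANKRD1. They are 10 of 58735 genes in the table, and all 10 passed the filter on low values that left 13150 genes to be tested. Within this small set WWTR1 fell to 52.6% of its control level, TEAD1 rose, and the target ANKRD1 rose from a low level, while TEAD4, the target CTGF and the scaffold AMOTL2 could not be separated from their controls.

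RNA-seq was done on PC9-BrM3, a derivative of the lung adenocarcinoma line PC9 that was selected in mice for spread to the brain. The 3 BrM3-shAKR1B10 libraries came from cells carrying a lentiviral (LV2) short hairpin RNA against AKR1B10, and their genotype is labelled AKR1B10 knockdown. The 3 BrM3-shNC libraries came from cells carrying the negative control hairpin in the same vector, labelled WT. Both groups were kept in routine culture, the knockdown rests on 1 hairpin vector in 1 cell line, and nothing in the labels says that replicates were separate cultures, so p-values measure only the spread between these libraries, which may be technical.

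In the Hippo pathway a kinase cascade ends in LATS1 and LATS2, which phosphorylate YAP and TAZ and thereby hold them in the cytoplasm. Unphosphorylated YAP and TAZ enter the nucleus, where they bind DNA only through partners, mainly the TEAD factors, and switch on genes of growth, adhesion and matrix such as CTGF and CYR61. The pathway senses cell contact, polarity and tension, much of its control acts on proteins rather than on mRNA, and YAP activity is well known in lung cancer for its part in drug tolerance and spread. The mRNA levels given here do not report phosphorylation or nuclear entry.

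The TEAD site has the core GGAATG, which reads CATTCC on the other strand. It was searched on both strands in promoter windows of 300 bases (250 bases before to 50 bases after each RefSeq start, GRCh38.p14), because the members include genes commonly used to read out TEAD-bound YAP and TAZ. Windows were found for 7 of the 10 members, 10 windows in all, with TEAD1, TEAD4 and CYR61 not in the table. The core was present in 6 of the 10 windows, in 6 genes, against 14.0% of all 35116 promoter windows. The stretches below are written 5′ to 3′ on the strand of the gene, with the core in capitals, and are shown because they mark which members carry it and how often.
CTGF, upstream core, chr6:131951524-131951553, minus strand: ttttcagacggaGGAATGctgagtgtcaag
CTGF, paired cores, chr6:131951455-131951483, minus strand: gtggggaGGAATGcgaGGAATGtccctgt
ANKRD1, upstream core, chr10:90921290-90921319, minus strand: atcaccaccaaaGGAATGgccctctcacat
ANKRD1, downstream core, chr10:90921198-90921227, minus strand: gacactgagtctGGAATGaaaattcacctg
YAP1, chr11:102110273-102110302, plus strand: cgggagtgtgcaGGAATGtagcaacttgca
LATS2, chr13:21061560-21061589, minus strand: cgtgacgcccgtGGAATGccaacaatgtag
AMOTL2, second start, chr3:134374499-134374528, minus strand: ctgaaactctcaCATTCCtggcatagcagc
AJUBA, second start, chr14:22976884-22976913, minus strand: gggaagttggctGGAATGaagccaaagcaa

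The CTGF window held 3 cores, which began 169, 104 and 95 bases before the start, and only 45 windows (0.128%) in the whole table held 3 or more. The ANKRD1 window held 2 cores, 220 and 128 bases before the start, and 1.37% of windows held 2 or more. In the annotation (GENCODE 29), the CTGF stretches lay upstream of the gene, within an intron of the opposite-strand transcript AL133346.1. The downstream ANKRD1 stretch and the AMOTL2 and AJUBA stretches lay in UTR sequence of annotated transcripts of those same genes that begin further upstream, and the YAP1 stretch lay in an exon of AP001527.2 on the opposite strand. Neither of the 2 WWTR1 windows held the core. These matches are letters in a window and show no binding. CTGF and ANKRD1, the members with most cores, did not move alike after the knockdown, as their values below show.

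**Figure D1:**
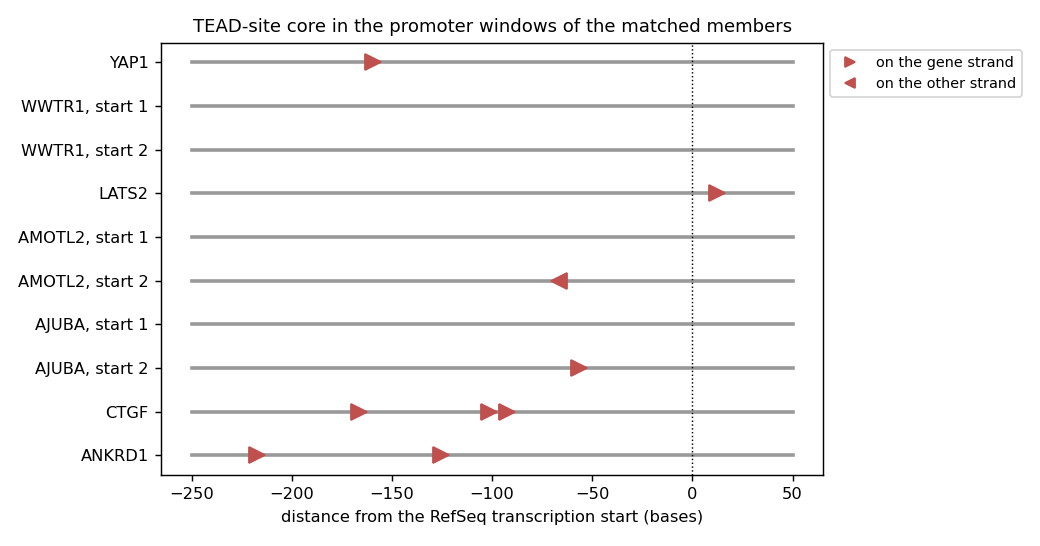
Position of the TEAD-site core in the 10 promoter windows of the 7 matched genes. The horizontal axis is the distance from the RefSeq transcription start in bases, each grey line is 1 window, and each triangle is 1 core pointing along its strand. CTGF carries 3 cores and ANKRD1 carries 2, while the WWTR1 windows carry none.

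The knockdown was present in every library that carried the targeting hairpin. AKR1B10, an aldo-keto reductase, was at 108, 107 and 110 FPKM (fragments per kilobase of gene, scaled to a library size, the deposited unit) in the BrM3-shAKR1B10 libraries, against 799, 775 and 772 FPKM in the BrM3-shNC libraries. Reads on genes, recovered from the FPKM values, ran from 16964504 to 18709028 per library. The library sizes behind the FPKM values were above these reads in every knockdown library (replicate 1, 17669819 against 17253067). They were below them in every control (replicate 1, 18350584 against 18709028). Fold changes carry this scaling, and their median over all genes was -0.01 with FPKM and 0.03 with TPM. At those library sizes 3 reads equal 0.163 to 0.177 FPKM for a gene 1000 bases long. All 6 epithelial markers were detected, with summed levels of 3167 to 3253 FPKM after knockdown and 2986 to 3348 FPKM in controls. None of 4 lung lineage markers reached a mean of 1 FPKM: SFTPB and SFTPC were at or near 0, NKX2-1 was at most 0.262 FPKM and NAPSA at most 0.677 FPKM. These 4 genes were thus low or absent in both groups, which does not test the origin of the line. The fibroblast markers COL1A2, DCN and PDGFRA were listed at 0 in all libraries. The summed level of the 5 fibroblast markers was 1.20 to 1.35 FPKM after knockdown and 2.03 to 2.05 FPKM in controls, that of the 3 endothelial markers 2.10 to 2.37 and 1.52 to 1.79 FPKM, and that of the 3 blood markers 0.0556 to 0.139 and 0.192 to 0.265 FPKM. These small sums moved with the groups (COL1A1 was called lower and CDH5 higher), but the endothelial list was split, with PECAM1 at 0.233 to 0.293 FPKM after knockdown and 0.388 to 0.513 FPKM in controls, and their part in the results was not tested. Because the RNA is bulk, fewer cells that express a gene and less RNA per cell cannot be told apart for any value below.

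A gene was called when limma gave a Benjamini-Hochberg adjusted p under 0.05 over the 13150 genes and an absolute log2 fold change above 0.5. Fold changes are on the log2(FPKM + 0.1) scale, knockdown minus control, and understate the change of low genes. By that rule 1 of the 10 members was lower (WWTR1) and 2 were higher (TEAD1 and ANKRD1), while 7 were not called. Over all genes tested, 980 (7.45%) were called lower and 766 (5.83%) higher, 13.3% in either direction. The order of the directions turned with TPM, which gave 873 lower and 902 higher, so neither direction is taken as the more frequent. With the adjusted p alone, at any fold change, 3 members were lower (YAP1, WWTR1 and LATS2) and 3 higher (TEAD1, CYR61 and ANKRD1), where 42.5% of all genes passed in one direction or the other. The groups did not overlap in 7 of the 10 members, beside 54.7% of all genes. The median log2 fold change of the members was -0.10 and that of all genes -0.01, and the median absolute change was 0.24 against 0.20. The members as a set therefore had no common direction, and no test of the set was made.

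**Figure D2:**
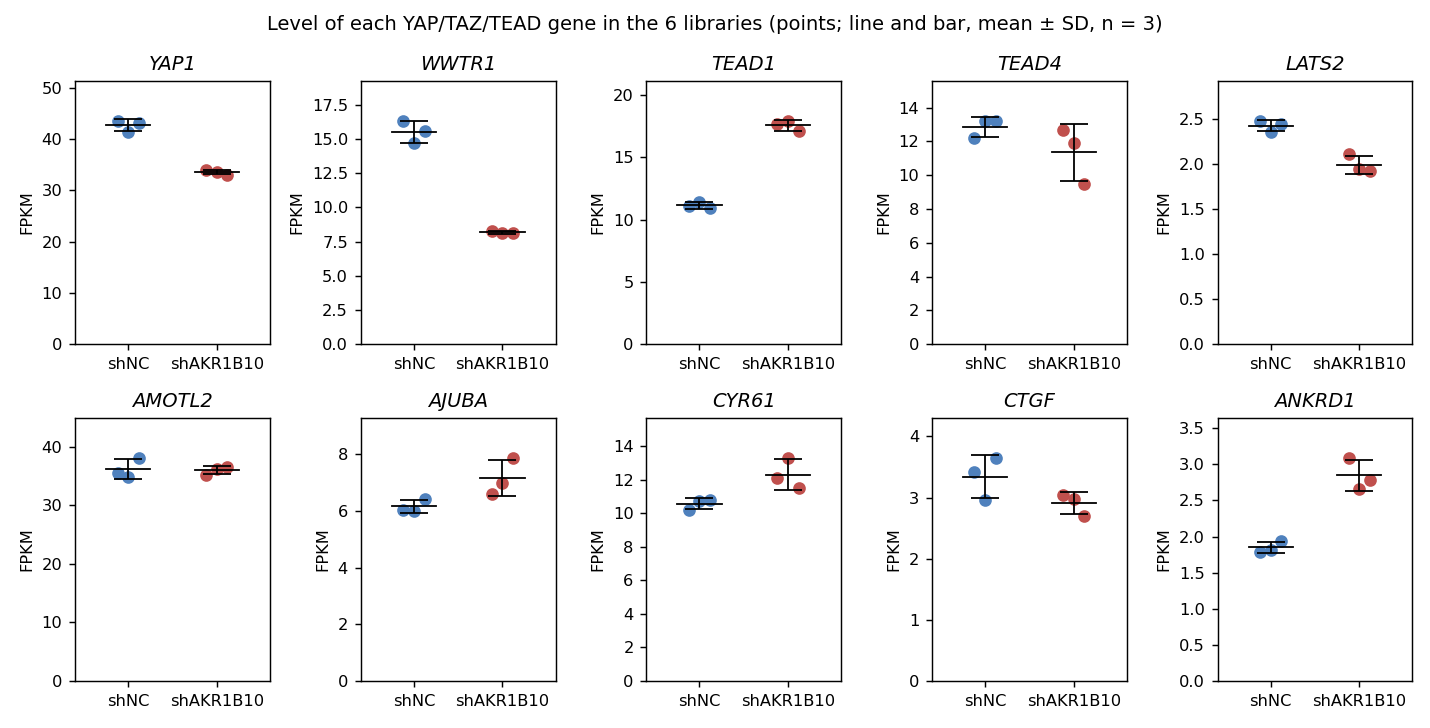
Level in FPKM (vertical axes from 0) of each of the 10 genes in the 3 BrM3-shNC and 3 BrM3-shAKR1B10 libraries. Points are libraries in replicate order, and the line and bar are the mean ± SD. WWTR1 drops from about 15.5 to 8.18 FPKM and TEAD1 climbs from 11.2 to 17.6 FPKM with no overlap, whereas TEAD4, AMOTL2 and CTGF overlap.

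The coactivators were both at lower level in the knockdown libraries. WWTR1 (ENSG00000018408, chr3:149517235-149736714, minus strand, GRCh38), which encodes TAZ, was at 8.31, 8.12 and 8.11 FPKM in BrM3-shAKR1B10 and at 16.3, 14.7 and 15.6 FPKM in BrM3-shNC. The 3 knockdown libraries were almost equal and all lay far under the lowest control. The means were 8.18 ± 0.114 and 15.5 ± 0.823 FPKM (SD, n = 3 each), 52.6% of the control level, and WWTR1 fell by 0.92 on the log2 scale (SE 0.0474, 95% confidence interval -1.03 to -0.80, limma adjusted p = 3.3e-05). This was the largest absolute fold change among the members. Exons of the antisense gene WWTR1-AS1 cover 9.45% of the WWTR1 length, but that gene was given only 9 to 23 reads in any library.

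YAP1 (ENSG00000137693, chr11:102110461-102233423, plus strand), the paralogue of TAZ and the most abundant member in control cells, was at 33.9, 33.6 and 33.1 FPKM after knockdown and at 43.5, 41.4 and 43.2 FPKM in controls. The groups did not overlap and the spread within each was small. Its mean was 33.5 ± 0.406 against 42.7 ± 1.14 FPKM, 78.6% of control, with a log2 fold change of -0.35 (SE 0.0324, interval -0.42 to -0.27, limma adjusted p = 0.00034). The adjusted p passed, but the size did not reach the limit of 0.5, so YAP1 was not called.

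Since both coactivators can occupy the same TEAD factors, their levels were also added. YAP1 plus WWTR1 came to 42.2, 41.7 and 41.2 FPKM in the knockdown libraries and to 59.8, 56.1 and 58.8 FPKM in the controls, without overlap. TAZ transcripts made up 19.6 ± 0.126% of that sum after knockdown and 26.7 ± 0.560% in control cells (SD, n = 3 each). The summed coactivator mRNA was thus lower, and a greater part of it was YAP1 mRNA. Protein was not measured here. With 3 libraries against 3, an exact permutation test of such a sum or share cannot go below a two-sided p of 0.10, so none is given.

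The 3 protein-coding genes whose centred profile over the 6 libraries lay nearest to that of WWTR1, among 10776 compared, were ABI1, MED21 and SH3D19. ABI1, a subunit of the actin-regulating WAVE complex, differed from the WWTR1 profile by a root mean square of 0.0197 on the log2 scale. It was at 12.1, 12 and 11.6 FPKM after knockdown and at 23.7, 21.5 and 22.2 FPKM in controls. The distances of MED21, a Mediator subunit, and SH3D19, an SH3-domain scaffold, were 0.0330 and 0.0341. The log2 fold changes of ABI1, MED21 and SH3D19 were -0.91, -0.91 and -0.97, beside -0.92 for WWTR1, and with 6 libraries in 2 groups nearness says little beyond that.

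Among the TEAD factors, the members diverged. TEAD1 (ENSG00000187079, chr11:12674591-12944483, plus strand) was at 17.7, 17.9 and 17.1 FPKM after knockdown and at 11.1, 11.4 and 10.9 FPKM in controls. Every knockdown library lay above every control by more than the whole range of either group. TEAD1 rose to 158% of control (17.6 ± 0.408 against 11.2 ± 0.237 FPKM), a log2 fold change of 0.65 (SE 0.0363, interval 0.56 to 0.74, limma adjusted p = 4.4e-05).

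TEAD4 (ENSG00000197905, chr12:2959330-3040673, plus strand), a relative of TEAD1 with the same DNA-binding domain, was at 12.7, 11.9 and 9.46 FPKM after knockdown and at 12.2, 13.2 and 13.2 FPKM in controls. The third knockdown library was low and the other two lay within or near the control range, so the groups overlapped. Its log2 fold change was -0.19 (SE 0.109, interval -0.45 to 0.07, limma adjusted p = 0.212). Leaving out each library in turn gave values from -0.27 to -0.06, and no difference could be shown at this spread.

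The remaining TEAD factors were compared to see how the family was made up. TEAD2 was at 17.0, 17.8 and 16.9 FPKM after knockdown and at 30.7, 32.6 and 31.9 FPKM in controls. It fell by 0.88 on the log2 scale (SE 0.0384, limma adjusted p = 2.1e-05), almost as much as WWTR1. Exons of CD37 on the other strand cover 10.7% of the TEAD2 length, and CD37 was given 128 to 224 reads. TEAD3 was at 26.0, 27.2 and 28.0 FPKM against 24.0, 22.5 and 24.7 FPKM, a log2 fold change of 0.19 that was not called (adjusted p = 0.0201).

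TEAD1 and TEAD2 changed in opposite directions, and the summed level of the family differed less in proportion than either. TEAD1 to TEAD4 together came to 73.4, 74.8 and 71.5 FPKM after knockdown and to 78.1, 79.7 and 80.8 FPKM in controls, with no overlap. TEAD1 made up 24.0 ± 0.133% of this sum after knockdown and 14.0 ± 0.432% in controls. The TEAD2 share was 23.5 ± 0.358% against 39.9 ± 0.876%, and the TEAD3 share 36.9 ± 1.97% against 29.8 ± 1.42%. Only the TEAD4 share overlapped between the groups, at 15.5 ± 2.09% and 16.2 ± 0.475%. By FPKM, TEAD2 was thus the most abundant of the family in control cells, and TEAD3 was the most abundant after knockdown. This order and the shares depend on division by gene length (10279 bases for TEAD1, 2980 for TEAD2 and 3046 for TEAD3). By reads TEAD1 was highest in both groups, with at least 1985 per library against at most 1734 for TEAD2 and 1512 for TEAD3.

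**Figure D3:**
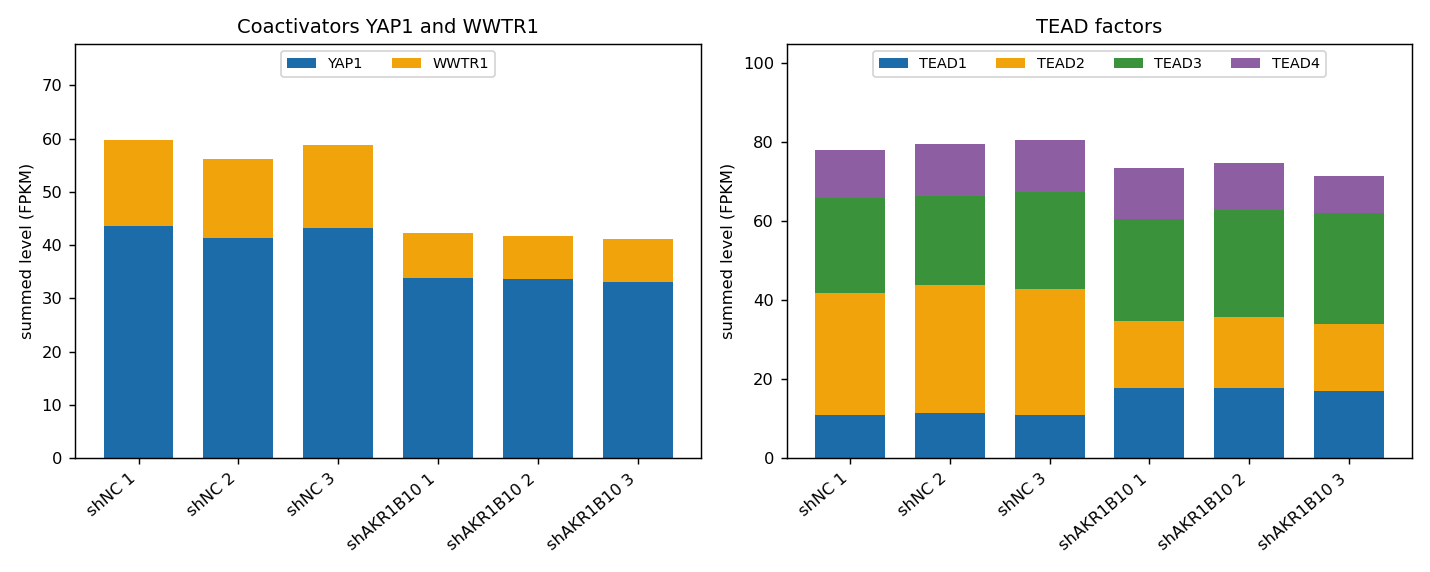
Levels of YAP1 and WWTR1 (left) and of TEAD1 to TEAD4 (right) stacked in each library, in FPKM on axes that start at 0. The coactivator sum is 41.2 to 42.2 FPKM in the BrM3-shAKR1B10 libraries and 56.1 to 59.8 FPKM in the BrM3-shNC libraries, and within the TEAD sum the TEAD1 segment is larger and the TEAD2 segment smaller after knockdown.

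The vestigial-like proteins bind TEAD factors at the surface that YAP and TAZ use. Of the 6 other TEAD and VGLL genes listed, 5 were tested, 1 was lower (TEAD2) and 1 higher (VGLL3), beside 7.45% and 5.83% of all genes, with a median log2 fold change of 0.19. VGLL3 was low, at 1.70, 1.52 and 1.24 FPKM against 0.990, 0.865 and 1.03 FPKM, and its log2 fold change of 0.57 (limma adjusted p = 0.0339) lost its call with the replicate block (adjusted p = 0.0724), with quantile scaling (0.49, adjusted p = 0.0564), with a pseudocount of 1 (0.34), with no filter, and when any library except BrM3-shAKR1B10 replicate 3 was left out. VGLL1 was the most abundant of the list, at 129, 131 and 131 FPKM after knockdown and at 96.4, 89.3 and 94.0 FPKM in controls. Its log2 fold change of 0.49 (adjusted p = 0.00013) lay just under the limit and passed it with TPM (0.52), with quantile scaling (0.54) and without BrM3-shNC replicate 1 (0.51). VGLL2 was listed at 0 in all libraries.

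Of the upstream regulators, none was called. LATS2 (ENSG00000150457, chr13:20973032-21061547, minus strand), the kinase that inhibits YAP and TAZ and is itself a target of them, was low, with 191 to 254 reads per library. It was at 2.11, 1.95 and 1.93 FPKM after knockdown and at 2.48, 2.36 and 2.45 FPKM in controls. All knockdown libraries lay under all controls. The log2 fold change was -0.27 (SE 0.0769, interval -0.46 to -0.09, limma adjusted p = 0.0285), but the adjusted p was 0.0643 with the replicate block, 0.0568 with no filter and 0.0589 to 0.0797 when any library except BrM3-shAKR1B10 replicate 1 was left out. Its paralogue LATS1, singled out after its values were seen, was at 4.37, 4.47 and 4.39 FPKM against 6.56, 5.82 and 6.05 FPKM, with a log2 fold change of -0.47 (adjusted p = 0.00095), also under the limit, which it passed without BrM3-shNC replicate 2 (-0.50).

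AMOTL2 (ENSG00000114019, chr3:134355874-134375479, minus strand), an angiomotin that tethers YAP at cell junctions and is a YAP target too, had the smallest fold change of the members. It was at 35.2, 36.2 and 36.5 FPKM after knockdown and at 35.5, 34.9 and 38.1 FPKM in controls. The groups overlapped, the log2 fold change was -0.01 (SE 0.0418, interval -0.11 to 0.09, limma adjusted p = 0.902), and its sign turned to positive under TPM (0.03) and quantile scaling (0.07).

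AJUBA (ENSG00000129474, chr14:22971174-22982642, minus strand), a LIM protein that restrains the LATS kinases, was at 6.62, 6.99 and 7.88 FPKM after knockdown and at 6.05, 6.0 and 6.44 FPKM in controls. The lowest knockdown library lay just above the highest control. Its log2 fold change was 0.21 (SE 0.0717, interval 0.04 to 0.38), and the limma adjusted p of 0.0542 missed the threshold, while the replicate block gave 0.0385.

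The wider list of Hippo kinases, scaffolds and polarity proteins had as many genes below 0 as above it. Of 33 genes listed, 30 were tested, 1 was lower, 0 were higher and the median log2 fold change was 0.00, with 6 lower and 7 higher by limma adjusted p alone, a share close to the 42.5% of all genes. The called share was under the 13.3% of all genes. The gene called lower was WWC2, a relative of KIBRA that activates the LATS kinases, at 2.24, 2.07 and 2.21 FPKM against 3.44, 2.99 and 3.22 FPKM. It fell by 0.54 on the log2 scale (limma adjusted p = 0.00201), and was no longer a call without BrM3-shNC replicate 1 (-0.49) or with a pseudocount of 1 (-0.41). The most abundant gene of the list, the polarity scaffold SCRIB, was at 28.6, 28.7 and 30.6 FPKM against 35.7, 39.5 and 41.8 FPKM, with a log2 fold change of -0.41 that was not called.

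**Figure D4:**
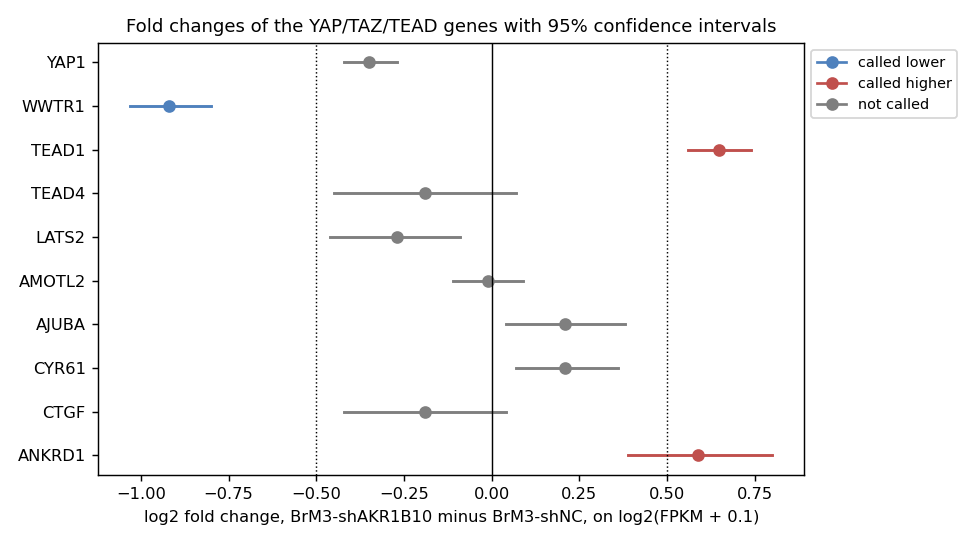
Log2 fold changes of the 10 genes (points) with 95% confidence intervals (lines) from limma, BrM3-shAKR1B10 minus BrM3-shNC on log2(FPKM + 0.1). Dotted lines mark 0.5 in each direction, the size a call required. WWTR1 at -0.92 lies left of the dotted line, TEAD1 at 0.65 and ANKRD1 at 0.59 lie right of it, and the other genes lie between.

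The direct target genes among the members did not move together. ANKRD1 (ENSG00000148677, chr10:90912096-90921276, minus strand), an ankyrin-repeat nuclear protein induced by YAP and by stretch in muscle, was at 3.09, 2.66 and 2.79 FPKM after knockdown and at 1.79, 1.82 and 1.94 FPKM in controls. The groups were well apart, although the values rest on 61 to 108 reads per library. ANKRD1 rose to 154% of control (2.85 ± 0.220 against 1.85 ± 0.0779 FPKM), a log2 fold change of 0.59 (SE 0.0858, interval 0.39 to 0.80, limma adjusted p = 0.00206). With a pseudocount of 1 the change was 0.43 and no longer a call.

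CYR61 (ENSG00000142871, chr1:85580761-85583962, plus strand, now named CCN1), a secreted matrix protein, was at 12.1, 13.3 and 11.5 FPKM after knockdown and at 10.2, 10.7 and 10.8 FPKM in controls. The groups did not overlap, but the difference was small. Its log2 fold change was 0.21 (SE 0.0595, interval 0.07 to 0.36, limma adjusted p = 0.0274), which is under the limit, and leaving out a library raised the adjusted p to as much as 0.0728 (without BrM3-shNC replicate 1), as did no filter, to 0.0611.

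CTGF (ENSG00000118523, chr6:131948176-131951373, minus strand, now CCN2), its close relative and the member with 3 TEAD-site cores in its promoter window, was at 3.05, 2.98 and 2.70 FPKM after knockdown and at 3.42, 2.96 and 3.65 FPKM in controls. The second control library lay inside the knockdown range. The log2 fold change was -0.19 (SE 0.0950, interval -0.42 to 0.04, limma adjusted p = 0.150) on 112 to 156 reads, and no difference could be shown at this spread. The ratio of CYR61 to CTGF was 3.95, 4.45 and 4.27 after knockdown and 2.97, 3.61 and 2.97 in controls, without overlap. The 4 other CCN family genes listed were all under a mean of 1 FPKM and were not tested.

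The target members were set beside the other genes of a 22-gene YAP/TAZ target signature, of which LATS2, AMOTL2, CYR61, CTGF and ANKRD1 are part. Of the 17 genes that are not members, 16 were tested, 2 were lower and 6 higher, with a median log2 fold change of 0.27. Over the whole signature 21 genes were tested, 2 were lower and 7 higher, beside 7.45% and 5.83% of all genes, and the median was 0.22. The groups did not overlap in 17 of the 21, beside 54.7% of all genes, and the median absolute change was 0.39, where all genes had 0.20. Since 5 of its genes are members, the whole signature is not independent of them.

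The genes called higher were F3, DOCK5, CRIM1, PTPN14, NT5E and ASAP1. F3, tissue factor of the clotting cascade, was at 51.7, 52.6 and 52.4 FPKM against 35.1, 32.4 and 31.1 FPKM, a log2 fold change of 0.67 (SE 0.0483, limma adjusted p = 0.00012). DOCK5, an activator of the GTPase Rac, rose by 0.77 (adjusted p = 6.3e-05), from 6.45 ± 0.272 to 11.1 ± 0.330 FPKM. In all 6 genes every knockdown library exceeded every control. CRIM1, a transmembrane regulator of BMP signalling, rose by 0.59, NT5E, the ectonucleotidase CD73, by 0.53, and ASAP1, an Arf GTPase-activating protein, by 0.50. PTPN14, a phosphatase that binds YAP and limits its activity, rose by 0.55. ASAP1 sat on the limit and lost its call without BrM3-shAKR1B10 replicate 2 (0.48) or BrM3-shNC replicate 2 (0.46). With a pseudocount of 1, both ASAP1 (0.49) and PTPN14 (0.48) were no longer called.

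The genes called lower were AXL and IGFBP3. AXL, a receptor tyrosine kinase, was at 2.06, 2.05 and 2.03 FPKM after knockdown and at 3.64, 3.92 and 3.66 FPKM in controls, and fell by 0.84 on the log2 scale (SE 0.0633, limma adjusted p = 0.00014). IGFBP3, a secreted binding protein of insulin-like growth factors, was at 12.5, 13.2 and 12.6 FPKM against 20.9, 19.9 and 19.8 FPKM, and fell by 0.66 (adjusted p = 6.3e-05). Both stood well outside the control range in every library. The most abundant gene of the list, the membrane-repair protein MYOF, was at 106, 109 and 109 FPKM against 93.3, 91.2 and 93.0 FPKM, a log2 fold change of 0.22 that was not called.

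**Figure D5:**
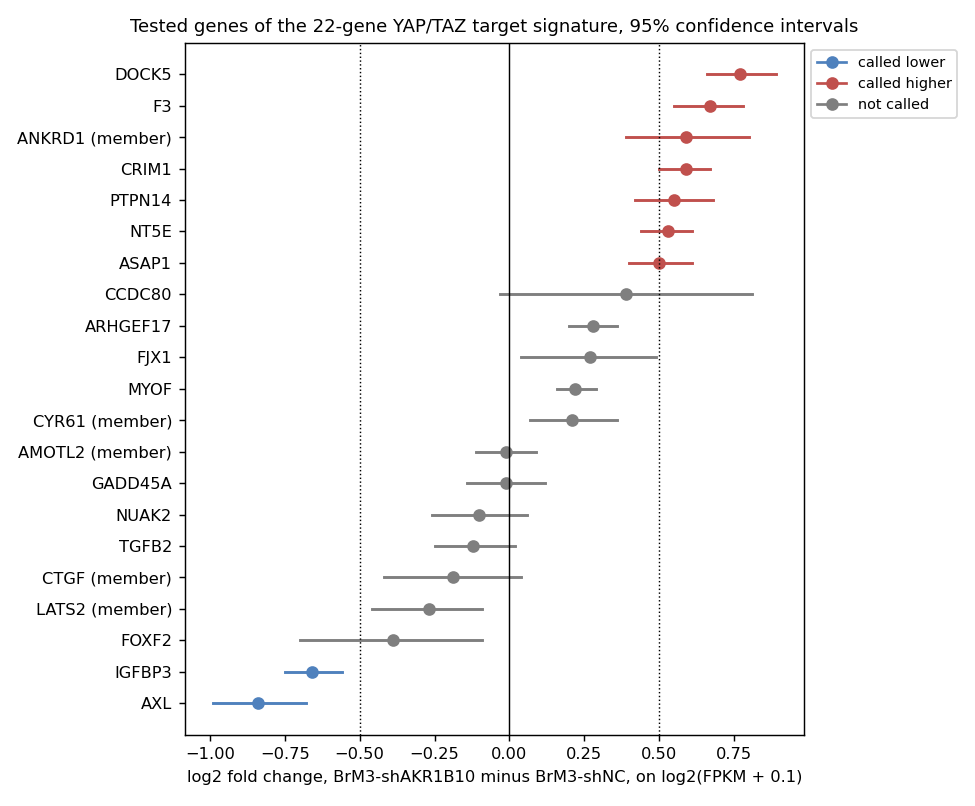
Log2 fold changes (points) with 95% confidence intervals (lines) from limma for the 21 tested genes of the 22-gene YAP/TAZ target signature, ordered by fold change, with members of the 10-gene set marked. Dotted lines mark 0.5 in each direction. Changes run from -0.84 (AXL) to 0.77 (DOCK5), with 2 genes called lower and 7 called higher.

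The MRTF coactivators and their DNA-binding partner SRF respond to actin and share targets with YAP and TAZ, so they were examined alongside. Of 10 genes listed, 6 were tested, 1 was called lower and 0 higher (13.3% of all genes were called in either direction), and the median log2 fold change was -0.27. The 4 not tested were under a mean of 1 FPKM. TAGLN, MYL9 and ACTA2 overlapped between the groups, at 86.6%, 97.0% and 114% of control, and CNN1 was at 0 in all libraries. With the limma adjusted p alone, 5 of the 6 tested were lower, among them the factors SRF and MRTFB. Over all 13150 genes tested, 3044 were lower and 42.5% passed in either direction. The exception among the 6 was MRTFA, at 99.6% of control (adjusted p = 0.964). TPM1, a tropomyosin counted among the 5, missed the threshold with the replicate block (adjusted p = 0.0630). FHL2, a LIM-domain cofactor, was the gene called, at 8.53, 8.68 and 7.61 FPKM against 12, 12.4 and 11.9 FPKM. It fell by 0.54 (adjusted p = 0.00058), and was no longer a call without BrM3-shAKR1B10 replicate 3 (-0.48) or with a pseudocount of 1 (-0.50). The most abundant, VCL (vinculin of focal adhesions), was at 21.3, 21.8 and 21.6 FPKM against 24.8, 23.7 and 24.4 FPKM, a log2 fold change of -0.17. Exons of AP3M1 on the opposite strand cover 11.1% of its length, and AP3M1 was given 1945 to 2383 reads, beside at most 4549 for VCL.

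The order of the members by FPKM, which divides by gene length, differed between the groups. In control cells it was YAP1, AMOTL2, WWTR1, TEAD4, TEAD1, CYR61, AJUBA, CTGF, LATS2 and ANKRD1, from 42.7 to 1.85 FPKM, and no neighbours in this order overlapped in their libraries. After knockdown it was AMOTL2, YAP1, TEAD1, CYR61, TEAD4, WWTR1, AJUBA, CTGF, ANKRD1 and LATS2, from 36.0 to 2.0 FPKM. CYR61 and TEAD4 overlapped there, as did CTGF and ANKRD1, so their order was not resolved. WWTR1 moved from the third place to the sixth and TEAD1 from the fifth to the third.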

How the data were processed

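RNA of 6 PC9-BrM3 libraries was sequenced (3 BrM3-shAKR1B10, 3 BrM3-shNC). The authors aligned reads with HISAT2 2.0.5, counted them per gene with featureCounts 1.5.0-p3 and deposited FPKM values, the unit used here. The build is not given in the sources used here. All 58735 gene positions equal those of GENCODE 29 (GRCh38). Strand use in counting is not given, so overlapping opposite-strand genes are uncertain. Values up to 1000 reads were whole multiples of 1 read in 100% of cases (tolerance 0.05 reads), which gave depth. The floor of 3 reads covers counting error alone.

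The test was limma 3.58.1 on log2(FPKM + 0.1) for genes averaging at least 1 FPKM (R 4.3.3, empirical Bayes with trend, Benjamini-Hochberg adjustment), two-sided, after the script was tested on simulated data. No column of another series was present (0). Alternatives were pseudocounts of 1 and 0.01, no filter, a minimum of 5 FPKM, TPM, quantile scaling, no trend, voom on recovered reads, a replicate block, protein-coding genes only, other fold limits and leaving out each library. Same-numbered libraries did not deviate together (correlations -0.0155, 0.00388 and 0.00383), and replicate pairs differed beyond sampling noise. BrM3-shNC replicate 1 stood furthest apart, with a chi-square per gene of 4.88 and 5.42 against the other controls. The remaining pairs were at 2.45 to 2.70.

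The members and lists were chosen with earlier results of these data known. Named genes were the members, AKR1B10, every called list gene, the most abundant tested gene of each list, TEAD2, TEAD3 and the 3 profiles nearest to WWTR1. LATS1, MRTFA, TPM1, COL1A1, CDH5 and PECAM1 were added after their values were seen. Promoter windows are from RefSeq (GRCh38.p14). Proteins are not used here.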

Additional observations from a re-analysis of the deposited data

How the results depend on the processing

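WWTR1 and TEAD1 kept their calls under every alternative except a fold limit of 1, and ANKRD1 also lost its call with a pseudocount of 1 and was not tested at 5 FPKM. Leaving out any library kept all 3 calls. With a fold limit of 1 the counts lower and higher became 0 and 0 for the members, and 0 for every list (Hippo lower, TEAD and VGLL lower and higher, other targets lower and higher, MRTF-SRF lower). With no fold limit, an alternative chosen after seeing the data, 3 members were lower, Hippo genes were 6 lower and 7 higher, TEAD and VGLL genes 3 higher and MRTF-SRF genes 5 lower. With a pseudocount of 1, 1 member was higher, and the Hippo lower, TEAD and VGLL higher and MRTF-SRF lower counts were 0. With a minimum of 5 FPKM, 1 member was higher, the Hippo lower and TEAD and VGLL higher counts were 0 and 1 other target was lower, because fewer genes were tested. The TEAD and VGLL higher count was 0 with no filter and 2 with TPM. With quantile scaling it was 1, but VGLL1 took the place of VGLL3. Leaving out 1 library gave 0 to 2 Hippo genes lower (0 without BrM3-shNC replicate 1, 2 without BrM3-shNC replicate 2), 0 to 1 TEAD and VGLL genes higher (0 without BrM3-shAKR1B10 replicate 1 or 2 or BrM3-shNC replicate 2 or 3) and 0 to 1 MRTF-SRF genes lower (0 without BrM3-shAKR1B10 replicate 3). The replicate block, which pairs libraries only by number, gave 0 TEAD and VGLL genes higher and changed no other count of members or lists beyond 1.5 times. AMOTL2 turned positive with TPM (0.03), quantile scaling (0.07), without BrM3-shAKR1B10 replicate 1 (0.01) and without BrM3-shNC replicate 3 (0.03), within a range of -0.03 to 0.03 over single libraries left out. Apart from the smaller number of genes tested, the cause was not tested. ANKRD1, CTGF and LATS2 rest on 61 to 254 reads per library, which limits their precision, and TEAD4 had the largest standard error of the members (0.109).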
